A study of Mus musculus with 20 samples.

Results

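Chromosome 3 carried 2 of the 7 regions that were captured by chromosome conformation capture carbon copy (5C), the region around Sox2 and the region around Nestin, and the contacts between them are described here. In 5C, each primer matches the end of 1 restriction fragment, a forward and a reverse primer are joined where their fragments had been ligated after crosslinking, and a count says how often that joint was read. All pairs of a forward and a reverse primer with 1 primer in each region were taken, which made 27161 possible pairs of 601344 in all. A count in at least 1 of the 10 5C libraries was found for 26473 of them, 688 had none, and 3078 had a count in every library. The Sox2 region spanned chr3:34107374-35107373 with 265 fragments and the Nestin region chr3:87282064-88377995 with 205 fragments (mm9), and the midpoints of the paired fragments lay 52.2 to 54.3 Mb apart. The other 20 pairs of regions lay on different chromosomes and held 476940 forward-reverse pairs, which served as the reference. The region around Nestin is named after the protein, and its gene symbol is Nes.

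Mouse cells of 5 kinds on a 129SvJae x C57BL/6 background were compared, with 2 5C libraries and 2 RNA libraries of each kind. They were embryonic stem (ES) cells of the male V6.5 line in medium with LIF, the same line in 2i medium, neural progenitor cells (NPC), induced pluripotent stem (iPS) cells made from primary NPC, and iPS cells moved to 2i medium. The 2i medium is free of serum and holds LIF with CHIR99021 and PD0325901, inhibitors of the kinases GSK3 and MEK. Whole brains of P1 mice with Sox2-eGFP were the source of NPC, which grew as neurospheres. NPC and both kinds of iPS cells carried the Sox2-eGFP genotype, which the labels do not give for V6.5 ES cells. How the reporter was made, the number of iPS clones and whether replicates were separate cultures was not stated in the labels, so a p-value speaks of the spread between the deposited samples, and that spread may be technical. ES and iPS cells grew on MEF feeders inactivated with Mitomycin-C before a passage on gelatin that removed feeders. Crosslinks were made with 1% formaldehyde, and HindIII cut the chromatin for 5C.

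Sox2 encodes a transcription factor of the SRY-box family that acts in pluripotent cells and in neural stem cells, and Nes encodes nestin, an intermediate filament protein used as a marker of neural progenitors. Each chromosome occupies a territory of its own in the nucleus, and the contact frequency of loci on 1 chromosome falls steeply with their distance. At very long distances such contacts are rare, and pairs on different chromosomes were taken as the reference for so distant a pair of regions. Fragments also differ in how readily they are cut, joined and amplified, so a count has to be read against what each fragment gives elsewhere.

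The 5C libraries held 10508118 to 26533530 counts, of which 7.55% to 18.1% joined regions on different chromosomes. That share was 7.55% to 10.0% in 4 libraries (ES in 2i replicate 1, NPC replicate 2, iPS replicate 1 and iPS in 2i replicate 1) and 14.7% to 18.1% in the other 6. RNA libraries held 1150624 to 17286063 reads assigned to a transcript model. The 4 measured of 5 ES and iPS markers were without a read in NPC and summed to 3153 to 5362 CPM (assigned reads scaled to a common library size) elsewhere. Among them, Esrrb was low throughout, with 0 and 0.647 CPM in iPS cells and 2.65 to 8.38 CPM in ES, ES in 2i and iPS in 2i. The 4 measured of 5 neural progenitor markers summed to 7253 to 7906 CPM in NPC and to 31.4 to 81.2 CPM elsewhere. The 4 feeder fibroblast markers summed to 63.4 and 75.5 CPM in NPC, most of it from Thy1, and to 131 to 478 CPM elsewhere. Their part in the results below was not tested.

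The promoters of the genes after which both regions are named are shown because the results along the regions are read against their positions. Each sequence is the 250 bases before the gene's start from RefSeq (GRCm38.p6), on the plus strand, at chr3:34649745-34649994 for Sox2 and chr3:87970843-87971092 for Nes. Coordinates elsewhere in the text are from mm9 and differ from these. Capitals mark matches on either strand. The motifs searched were the HindIII site AAGCTT, which is its own reverse complement, the core ACAAT bound by SOX factors, and the CCAAT box, which the Sox2 promoter holds on the minus strand. No matches overlapped.
Sox2: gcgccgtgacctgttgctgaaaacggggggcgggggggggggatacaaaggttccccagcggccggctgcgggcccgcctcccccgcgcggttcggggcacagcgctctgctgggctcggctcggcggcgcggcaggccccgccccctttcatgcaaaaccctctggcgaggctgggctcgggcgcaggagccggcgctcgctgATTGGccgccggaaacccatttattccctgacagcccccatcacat
Nes: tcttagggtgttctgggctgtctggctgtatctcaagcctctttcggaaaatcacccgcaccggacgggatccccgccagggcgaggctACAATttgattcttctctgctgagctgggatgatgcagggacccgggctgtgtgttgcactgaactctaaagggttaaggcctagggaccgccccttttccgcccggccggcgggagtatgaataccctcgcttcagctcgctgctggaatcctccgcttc
Neither window held AAGCTT, which 6.22% of 32851 mouse promoters of the same kind hold. The Sox2 promoter, with 72% G and C, held 1 CCAAT match and no ACAAT. The Nes promoter, with 58.8% G and C, held 1 ACAAT match and no CCAAT. Of all promoters, 27.7% held ACAAT and 33.8% held CCAAT, so these matches are a description and not sites of binding.

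Sox2 to Nestin pairs were joined in every library, many times over what primers of 1 orientation gave. They held 210045 and 210871 counts in the ES libraries, 55315 and 110801 in ES in 2i, 116261 and 98029 in NPC, 54769 and 100279 in iPS cells, and 42583 and 100029 in iPS in 2i. As a share of each library this was 0.792% and 0.818% in ES cells, 0.469% and 0.780% in ES in 2i, 0.781% and 0.667% in NPC, 0.450% and 0.778% in iPS cells, and 0.405% and 0.830% in iPS in 2i. The 95% Wilson intervals were narrow, for example 0.401% to 0.409% for the lowest share, and they cover counting error only, since amplified reads are not independent molecules. The lowest shares belonged to the libraries with the lowest share of counts between chromosomes, and in ES in 2i, iPS and iPS in 2i the 2 libraries differed by more than the means of the kinds did. Pairs of 2 forward or 2 reverse primers, which cannot be joined in the assay, gave a background 27.6 to 240-fold below that of the forward-reverse pairs. That background was 0.817 to 1.13 times as high between Sox2 and Nestin as between regions on different chromosomes.

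Sox2 to Nestin pairs had a few more counts than pairs on different chromosomes pooled over regions, while the very high counts lay between chromosomes. Of the Sox2 to Nestin pairs, 48.6% to 78.8% had a count in a given library, against 43.1% to 76.2% of the pairs on different chromosomes, and the share was higher in all 10 libraries. Summed over the 10 libraries, the median was 21 counts per Sox2 to Nestin pair and 17 per pair on different chromosomes. Among the 21 pairs of regions this median ranked 4, behind Oct4 with Nestin, with Sox2 and with Olig1-Olig2, which had 22 each. Those 3 and Klf4 with Oct4 also had a larger share of pairs with a count over the libraries (up to 67.2%) than Sox2 with Nestin (64.3%). At least 20 counts were reached by 52.5% and 44.4%, and at least 50 counts by 17.8% and 14.9%. The order had turned at 200 counts, reached by 1.76% of the Sox2 to Nestin pairs and by 1.81% of the others, and 5000 counts were reached by 0.0258% and 0.0373%. At least 1 count was reached by 97.5% and 98.0%. The mean count per pair in a library, which the high counts raise, had a median over the libraries of 3.69 and 4.12.

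**Figure D1:**
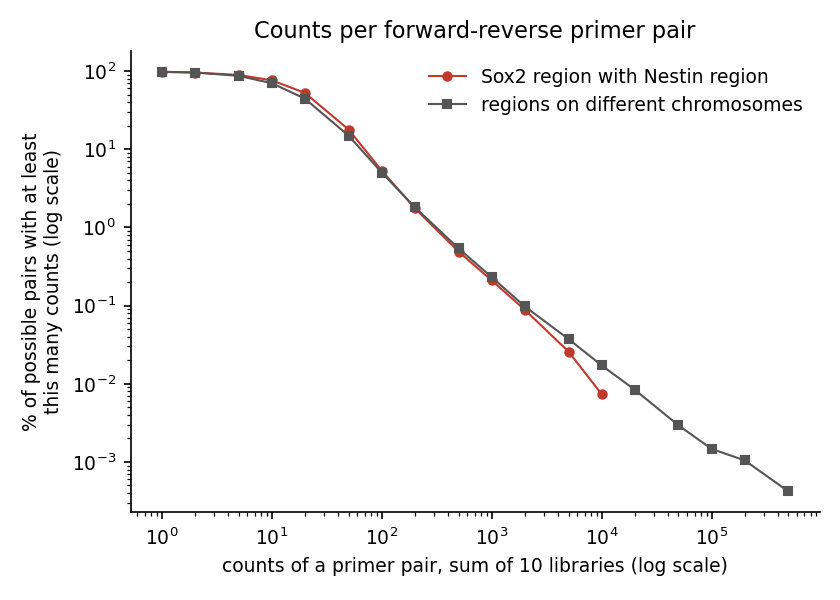
Share of forward-reverse primer pairs (percent, log axis) with at least the number of counts on the log x axis, summed over 10 libraries, for pairs of Sox2 with Nestin and for pairs of regions on different chromosomes. The Sox2 to Nestin curve lies above the other at 20 counts (52.5% against 44.4%) and below it at 5000 counts (0.0258% against 0.0373%).

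A few pairs on different chromosomes held a large part of the reference, and many of them used a primer of the Sox2 or Nestin region. The 10 highest pairs on different chromosomes held 12.8% of all such counts, and the 10 highest Sox2 to Nestin pairs held 7.17% of theirs. The highest pair on different chromosomes joined Olig1-Olig2_FOR_247 with Nestin_REV_258 and had 908713 counts, between 28107 and 261431 in each library, while the highest Sox2 to Nestin pair had 16924. Of the 10 highest pairs on different chromosomes, 4 had a Nestin and 3 a Sox2 primer, and of the 100 highest, 23 and 41. How these pairs arose was not tested. They raise the count to which each of their fragments is held, so 2 forms of the ratio were used, and not every ratio below is given in both. The first takes counts as deposited and expects from a pair the product of its fragments' mean counts to fragments on other chromosomes. The second, chosen after the data were seen, caps each count at the 99th percentile of its library's nonzero counts between regions (20 to 105 counts) and balances the fragments' factors by iteration over the pairs on different chromosomes. Capping touched 0.401% to 0.696% of the Sox2 to Nestin pairs and 0.420% to 0.752% of the pairs on different chromosomes.

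With capped counts, Sox2 and Nestin were joined more often than regions on different chromosomes in each library, and with counts as deposited less often than expected. The capped ratio of observed to expected counts was 1.06 and 1.07 in ES cells, 1.21 and 1.09 in ES in 2i, 1.12 and 1.18 in NPC, 1.12 and 1.09 in iPS cells, and 1.14 and 1.08 in iPS in 2i. All 10 lay above 1, with a geometric mean of 1.12 (mean log2 0.16). The ratio as deposited was 0.637 and 0.585 in ES cells, 0.856 and 0.747 in ES in 2i, 0.717 and 0.853 in NPC, 0.590 and 0.676 in iPS cells, and 0.782 and 0.731 in iPS in 2i. All 10 of these lay below 1, with a geometric mean of 0.711 (mean log2 -0.49). Both deviations from 1 gave p = 0.00195 in a two-sided exact sign-flip permutation test over the 10 libraries, the smallest p that it can give, so the direction rests on how the few very high counts are treated. The libraries share primers and fragments, so this p speaks of their agreement and is not particular to Sox2 with Nestin. Some pairs of regions on different chromosomes also lay on 1 side in all 10 libraries with capped counts. Examples are Klf4 with Sox2, above 1 (geometric mean 1.03), and Klf4 with Nestin, below 1 (0.970). Counts of 0 or 1 per pair, which ignore height altogether, gave a mean log2 of 0.075. In these bulk libraries, more contacts per cell and more cells with the contact cannot be told apart.

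**Figure D2:**
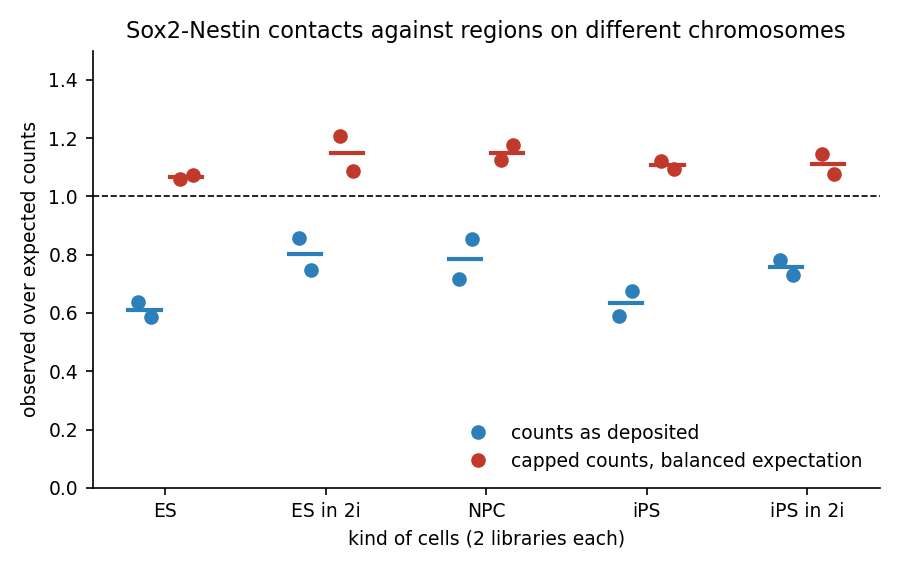
Observed over expected counts of Sox2 with Nestin for each of the 10 libraries, grouped by kind of cell, with counts as deposited and with capped counts, and bars at the mean of the 2 libraries of a kind. Capped values lie between 1.06 and 1.21, above the line at 1, and values as deposited between 0.585 and 0.856, below it.

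Among the 21 pairs of regions, Sox2 with Nestin, the pair on 1 chromosome, had the highest capped ratio in 9 of 10 libraries. In ES replicate 2 it was second, at 1.07 against 1.08 for the Klf4 region with the gene desert. The geometric means of the other 20 pairs of regions ran from 0.930 to 1.06. As deposited, Sox2 with Nestin ranked 19 of 21. The fit of the expectation used the other 20 pairs of regions and not this pair, so the spread of those 20 is that of fitted values, and the ranks are a description.

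**Figure D3:**
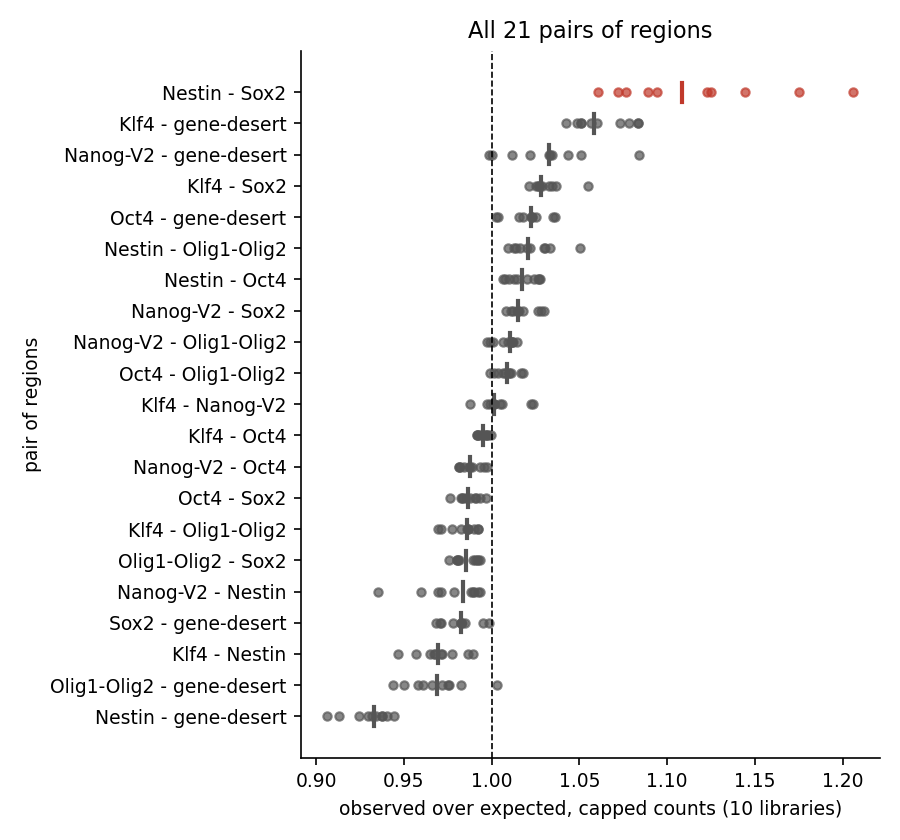
Observed over expected counts of each of the 21 pairs of regions, with capped counts, 1 point per library and a bar at the median of the 10 libraries. Sox2 with Nestin (red) lies highest, with a geometric mean of 1.12 here and of 0.711 as deposited, which the plot does not show.

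The 5 kinds of cells together did not separate beyond the spread between their libraries. Capped ratios averaged 1.07 ± 0.00806 (SD, n = 2) in ES cells, 1.15 ± 0.0829 in ES in 2i, 1.15 ± 0.0354 in NPC, 1.11 ± 0.0199 in iPS cells and 1.11 ± 0.0479 in iPS in 2i. Differences between kinds made up 47.0% of the variance of the log2 ratio (p = 0.419, exact permutation test over 945 partitions into 5 groups of 2). As deposited, ES cells averaged 0.611 ± 0.0362, ES in 2i 0.801 ± 0.0773, NPC 0.785 ± 0.0960, iPS cells 0.633 ± 0.0607 and iPS in 2i 0.756 ± 0.0357. ES and iPS cells outside 2i had the lowest values in this form, and differences between kinds made up 76.4% of the variance (p = 0.0889, exact permutation test, smallest possible 0.00106). The share of counts between chromosomes moved with the capped ratio. The 4 libraries with a share of 7.55% to 10.0% had capped ratios of 1.12 to 1.21, and the other 6 had 1.06 to 1.12. Its part in the result was not tested.

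In edgeR's quasi-likelihood test over the 21 pairs of regions, Sox2 with Nestin was higher in NPC than in ES cells and higher in ES in 2i than in ES cells with counts as deposited, and in neither with capped counts. NPC exceeded ES cells by a log2 fold change of 0.36 (SE 0.0983, Benjamini-Hochberg adjusted p = 0.0270, edgeR), where 33.3% of the pairs of regions were called. ES in 2i exceeded ES cells by 0.39 (SE 0.0984, adjusted p = 0.0237, edgeR), where 28.6% were called. With such a background, a call for 1 pair of regions is not particular to Sox2 with Nestin. For any difference among the 5 kinds it was not called (edgeR adjusted p = 0.0596, with 0% called), nor were the remaining contrasts. The log2 fold change was -0.31 for iPS against NPC (adjusted p = 0.124), 0.05 for iPS against ES (adjusted p = 0.774) and 0.26 for iPS in 2i against iPS (adjusted p = 0.121), with 0% of the pairs of regions called in each of them. With capped counts, edgeR gave 0.11 for NPC against ES (adjusted p = 0.132, with 4.76% called) and 0.10 for ES in 2i against ES (adjusted p = 0.166, with 0% called). The response to 2i in iPS cells minus that in ES cells was -0.13 on the log2 scale and was not called (edgeR adjusted p = 0.680).

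In edgeR, calls were both lost and gained when single libraries of the compared kinds were left out. Both calls above could be lost, and iPS against NPC and iPS in 2i against iPS could gain one. Such a fit leaves 1 library of a kind, so neither a loss nor a gain shows that a call rested on 1 library. Only log2 fold changes are given for these fits. NPC against ES gave 0.42 without ES replicate 1, 0.30 without ES replicate 2, 0.48 without NPC replicate 1 and 0.23 without NPC replicate 2. ES in 2i against ES gave 0.45 without ES replicate 1, 0.33 without ES replicate 2, 0.29 without ES in 2i replicate 1 and 0.49 without ES in 2i replicate 2. For iPS against NPC it was -0.43 without NPC replicate 1, -0.18 without NPC replicate 2, -0.21 without iPS replicate 1 and -0.41 without iPS replicate 2. For iPS in 2i against iPS it was 0.16 without iPS replicate 1 and 0.36 without iPS replicate 2. Without iPS in 2i replicate 1 or 2 the latter was 0.21 or 0.30.

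Along the Sox2 region, the capped ratio with the Nestin region was highest around Sox2 itself. The 100 kb window at 34.5 to 34.6 Mb, which holds Sox2, the 1 gene that the expression table places in the region, had a capped ratio of 1.21 over its 32 fragments. It was 1.16 and 1.20 in ES cells, 1.51 and 1.24 in ES in 2i, 1.20 and 1.27 in NPC, 1.23 and 1.14 in iPS cells, and 1.36 and 1.14 in iPS in 2i. This window ranked first of the 10 full windows in 8 libraries and second in NPC replicate 2 and iPS replicate 2. With the 5 regions on other chromosomes, the same window had ratios of 0.960 to 1.06 over all libraries, and its ratio with Nestin was the highest of the 6 in all 10 libraries. The fit of the expectation holds ratios with those 5 regions at 1 on average and leaves out the pair on chromosome 3. Which partner is highest is thus a description, here and below. Of the 32 fragments of this window, 24 lay above 1 and 15 lay above 1 in every library. As deposited, the window stood at 0.784, close to the 0.795 of the window at 35.0 Mb. The next window, at 34.6 to 34.7 Mb, had a capped ratio of 1.12, but its ratio with the regions on other chromosomes reached 1.14. The lowest full windows lay at 34.7 and 34.8 Mb, both at 1.03.

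Along the Nestin region, the highest full window was not that of Nes. The window at 88.0 to 88.1 Mb, with Rhbg, which encodes an ammonium transporter, had a capped ratio of 1.23 (1.11 to 1.37 over the libraries) and ranked first of 11 full windows in 6 libraries. It had 0.868 to 1.06 with the regions on other chromosomes, and with Oct4 (1.06) it also lay above 1 in all 10 libraries. Sox2 was its highest partner in all 10 libraries, but the window was picked for its ratio with Sox2, so this is a description. As deposited it stood at 1.31, and the window of Nes at 1.01. The window at 87.7 to 87.8 Mb holds Nes and also Hdgf, Isg20l2, Crabp2 and Bcan, and its capped ratio was 1.07 (1.02 to 1.23), with ranks down to 10 of 11. Sox2 was its highest partner in 8 libraries. The lowest, at 88.1 to 88.2 Mb, stood at 1.01 and held Cct3, Smg5, Tmem79, Pmf1 and 0610031J06Rik. Windows with more genes in the expression table had lower ratios over the 11 windows (Pearson's r -0.60, Spearman's rho -0.72). Over the 10 full windows of the Sox2 region, where the window of Sox2 is the only one with a listed gene, the relation ran the other way (r 0.76, rho 0.52). Both are descriptions over neighbouring windows of the same libraries. The window at the region's edge, at 87.2 Mb, reached 1.52 with 2 fragments only.

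**Figure D4:**
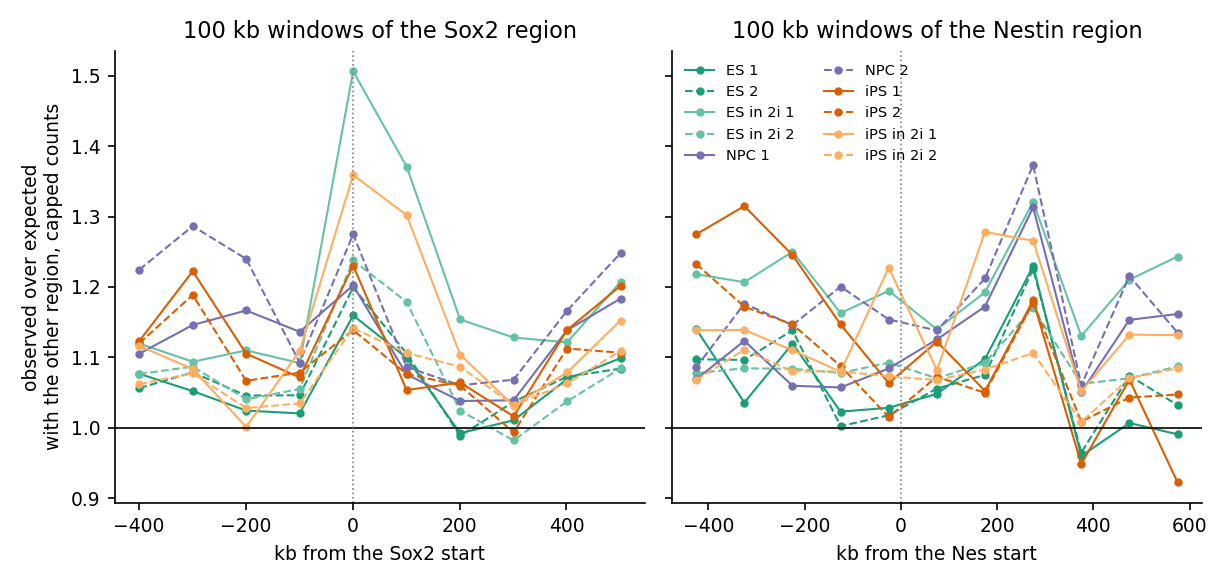
Capped observed over expected counts in 100 kb windows along the Sox2 region (with Nestin) and along the Nestin region (with Sox2), by distance in kb from the start of Sox2 or Nes, with 1 line per library, coloured by kind. Over all libraries the window of Sox2 stands at 1.21 above its neighbours, and the window of Nes at 1.07 below the 1.23 of the window with Rhbg.

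The fragment at the start of Sox2 was not among the high ones of its window, while the one that holds the rest of the gene was. The start of Sox2 (34548927) lies in Sox2_REV_154 (chr3:34546432-34549386), whose capped ratio with the Nestin region was 0.840, between 0.555 and 1.07 over the libraries. With the Olig1-Olig2 region, on another chromosome, the same fragment had 1.63 and lay above 1 in all 10 libraries. The next fragment, Sox2_FOR_155 (chr3:34549388-34558024), holds the rest of the gene as the expression table places it. It had 1238 and 959 counts with the Nestin region in ES cells, 699 and 772 in ES in 2i, 827 and 458 in NPC, 415 and 593 in iPS cells, and 528 and 735 in iPS in 2i. Its capped ratio was 1.49 and 1.23 in ES cells, 2.91 and 1.65 in ES in 2i, 1.99 and 1.47 in NPC, 1.70 and 1.65 in iPS cells, and 2.70 and 1.39 in iPS in 2i. Every library lay above 1, and the 2 highest were ES in 2i replicate 1 and iPS in 2i replicate 1, each well above the other library of its kind. Over all libraries it was 1.65 with Nestin and 0.817 to 1.07 with the 5 regions on other chromosomes, and Nestin was its highest partner in 9 of 10 libraries. As for the window, this rank is a description. Nearby fragments in the same orientation were also high, with capped ratios of 1.58 for Sox2_FOR_151, 1.64 for Sox2_FOR_153 and 1.59 for Sox2_FOR_161, each above 1 in all 10 libraries. Nestin was the highest partner of Sox2_FOR_151 in 9 and of Sox2_FOR_153 in 8 of 10 libraries, and these neighbours were chosen after their values were seen. Both also lay above 1 in all 10 libraries with the Nanog region, on another chromosome (1.29 and 1.31). Ratios above 1 in every library were thus not particular to the partner on chromosome 3.

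The fragment at the start of Nes showed no such excess. That start (87775015) lies in Nestin_REV_140 (chr3:87759491-87793437), a fragment of 33947 bp that overlaps Nes and Bcan, and its capped ratio with the Sox2 region was 0.816, from 0.609 to 1.39, with Sox2 as its highest partner in 2 libraries. Both fragments with a gene start carry reverse primers, so a joint of start with start was not measurable. The pair of Sox2_FOR_155 with Nestin_REV_140 had 94 counts where 47.8 were expected from balanced factors, with 23 and 0 in ES cells, 7 and 7 in ES in 2i, 14 and 18 in NPC, 2 and 9 in iPS cells, and 9 and 5 in iPS in 2i. Counts so low do not allow kinds of cells to be set against each other.

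Fragments downstream of Sox2 were high as well, most of all in 1 library of each 2i kind. Sox2_REV_178 (chr3:34629235-34645661) had a capped ratio of 1.56 with the Nestin region, Sox2_REV_180 had 1.46, Sox2_FOR_183 had 1.42 and Sox2_FOR_181 (chr3:34652181-34663892) had 1.23. For Sox2_FOR_181 the ratio was 1.29 and 0.96 in ES cells, 2.23 and 1.39 in ES in 2i, 0.95 and 1.05 in NPC, 1.05 and 1.15 in iPS cells, and 1.87 and 1.16 in iPS in 2i. The highest library of both 2i kinds was the one with the lower share of counts between chromosomes. ES in 2i against ES gave a log2 fold change of 0.66 for this fragment with capped counts (edgeR's quasi-likelihood test, Benjamini-Hochberg adjusted p = 0.157). Nestin was the highest partner of Sox2_REV_178, Sox2_REV_180 and Sox2_FOR_183 in 9 of 10 libraries and of Sox2_FOR_181 in 6. Some excess was also found with another chromosome, since Sox2_REV_178, Sox2_FOR_181 and Sox2_FOR_183 lay above 1 with the Klf4 region in all 10 libraries (1.21, 1.13 and 1.15). These 4 fragments were chosen after their values were seen.

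With capped counts, the excess was spread over pairs of 100 kb windows of both regions. Of the 132 pairs of windows, 110 had at least 50 primer pairs. Their median capped ratio was 1.10, against 0.985 for 2305 such pairs of windows on different chromosomes. In every library, 40 of the 110 (36.4%) lay above 1 and 2 lay below, against 11.2% and 12.2% on different chromosomes. No other pair of regions reached more than 20.0% above 1 in every library. The window of Sox2 with that at 88.0 Mb was the highest, with a capped ratio of 1.47 over the libraries. It was 1.41 and 1.54 in ES cells, 1.76 and 1.40 in ES in 2i, 1.56 and 1.79 in NPC, 1.46 and 1.33 in iPS cells, and 1.62 and 1.19 in iPS in 2i. It also lay above 1 in all 10 libraries as deposited, at 1.90 (1.36 to 3.86). The ratios of these 2 windows along their regions include this pair, so its height is not a separate result. The next capped values were 1.34 (34.1 with 87.4 Mb), 1.31 (34.2 with 88.0 Mb), 1.28 (34.3 with 87.5 Mb) and 1.27 (35.0 with 88.1 Mb). The lowest were 0.829 (34.8 with 88.1 Mb), 0.866 (34.7 with 88.1 Mb) and 0.879 (34.1 with 88.1 Mb).

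The window of Sox2 with the window of Nes was above expectation in both forms of the ratio. Its 304 primer pairs had 12951 counts, a capped ratio of 1.21 and a ratio as deposited of 1.35 (1.04 to 1.97). Capped, it was 1.20 and 1.08 in ES cells, 1.53 and 1.35 in ES in 2i, 1.12 and 1.27 in NPC, 1.06 and 1.14 in iPS cells, and 1.56 and 1.18 in iPS in 2i. All 10 libraries lay above 1, and NPC, the kind with the highest Nes level, lay inside the range of the others. The pair ranked 31 of 132 by the capped ratio and 17 of 132 as deposited. Among the 110 with at least 50 primer pairs it ranked 22 by the capped ratio.

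**Figure D5:**
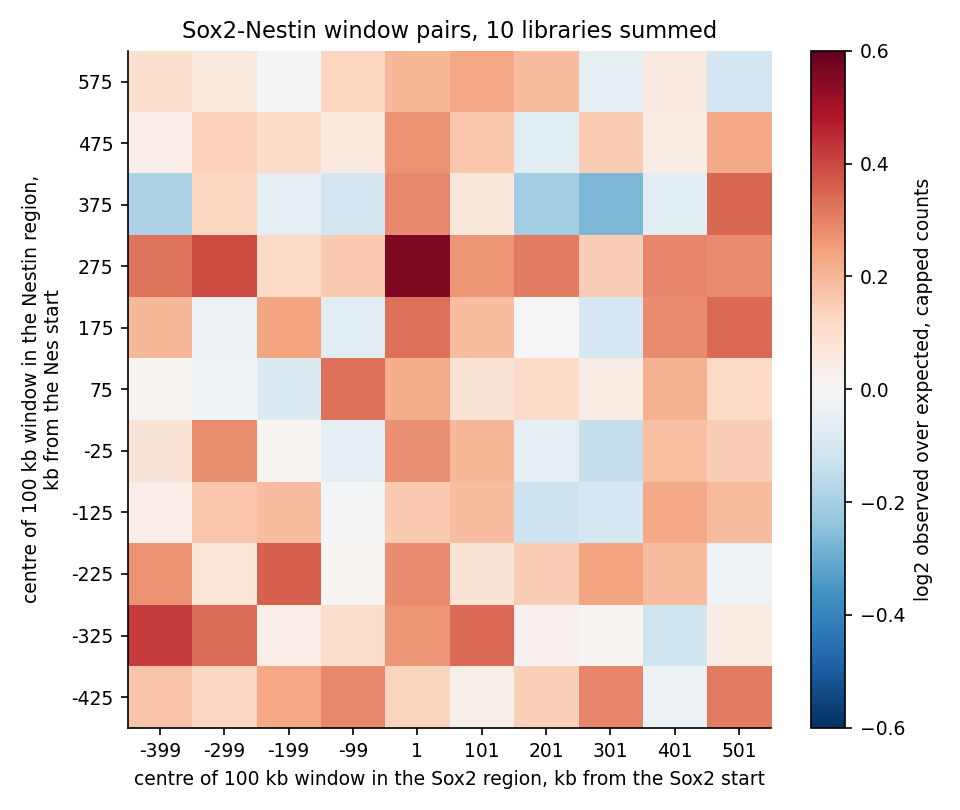
Capped observed over expected counts for each pair of 100 kb windows, all 10 libraries together on a log2 colour scale, with windows of the Sox2 region on the x axis and of the Nestin region on the y axis, by distance in kb from the start of Sox2 and of Nes. Of the 110 pairs of windows shown, the window of Sox2 with the window at 88.0 Mb is the highest at 1.47, and 40 lie above 1 in every library.

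As deposited, 4 of the 5 highest pairs of windows held few primer pairs or had much of their count from 1 of them, and the fifth was the window of Sox2 with that at 88.0 Mb, with 320 primer pairs and 20.1% of its count from 1 of them. The highest were 3 with the edge window at 87.2 Mb, at 4.94 (35.0 Mb), 3.52 (34.8 Mb) and 2.67 (34.5 Mb), each with 26 to 32 primer pairs. The window at 34.9 Mb with that at 87.8 Mb followed at 2.07, of which 65.2% came from 1 primer pair. The lowest were 3 with the window at 88.3 Mb, at 0.114 (35.1 Mb), 0.193 (35.0 Mb) and 0.194 (34.2 Mb). That window holds Nestin_REV_258, the fragment in the highest pair on different chromosomes, and with capped counts the same 3 stood at 0.619, 0.922 and 1.04.

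Across kinds of cells, edgeR's quasi-likelihood test called 0 of the 131 pairs of windows between Sox2 and Nestin (of 132) that passed the count filter for any difference among the 5 kinds, where 0.0698% of all 2865 pairs of windows were called. At an unadjusted p under 0.05 there were 34 of 131, against 18.2% of all pairs of windows. DESeq2 called 17 of 131 and 227 of all pairs of windows. Without iPS replicate 1 the edgeR counts became 2 of 131 and 15 of all, and without iPS replicate 2 they became 5 of 131 and 62 of all. For NPC against ES, edgeR called 1 of 131 (0.384% of all called), the window at 34.3 Mb with that at 88.3 Mb, which holds Ubqln4, Mex3a and Rab25. Its ratio as deposited was 0.137 and 0.136 in ES cells and 0.273 and 0.323 in NPC, a log2 fold change of 1.12 (SE 0.208, edgeR adjusted p = 0.0439). With capped counts this pair stood at 0.846 and 0.943 in ES cells and at 1.28 and 1.18 in NPC, the highest of the 10 libraries, with a log2 fold change of 0.46 (SE 0.0974, edgeR adjusted p = 0.0473). Over the 131, the median log2 fold change of NPC against ES was 0.23, and 0.04 over all 2865. The number called in edgeR was 0 without ES replicate 1, ES replicate 2, ES in 2i replicate 1, ES in 2i replicate 2 or NPC replicate 2, 13 without NPC replicate 1, 3 without iPS replicate 1 or 2, and 2 without iPS in 2i replicate 1 or 2. The calls over all pairs of windows moved as well, from 11 to 180 without NPC replicate 1, to 46 and 45 without iPS replicate 1 and 2, to 10 without either iPS in 2i library, and to between 1 and 5 without the others.

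Capped counts added 2 pairs of windows that were higher in NPC than in ES cells, so 3 were called in all where 0.593% of the 2865 were. The window at 34.3 Mb with that at 88.1 Mb had capped ratios of 0.866 and 0.919 in ES cells and 1.20 and 1.17 in NPC (log2 fold change 0.41, SE 0.0991, edgeR adjusted p = 0.0473). In the other 8 libraries, ES included, it was at most 1.00. The window at 34.2 Mb with that at 88.3 Mb had 0.936 and 0.871 in ES cells and 1.24 and 1.30 in NPC (log2 fold change 0.49, SE 0.116, edgeR adjusted p = 0.0473). The 3 pairs lay in 2 neighbouring windows of the Sox2 region and shared fragments with each other, and none of these windows holds the start of Sox2 or Nes.

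The other contrasts gave no call between Sox2 and Nestin in edgeR with counts as deposited. For iPS against NPC, 0 of 131 were called (0.0349% of all), with 13 of 131 at an unadjusted p under 0.05 against 10.8% of all. For iPS against ES, 0 were called (0.0698% of all), with 19 of 131 against 10.5% unadjusted. ES in 2i against ES gave 0 (0.0698% of all), with 39 of 131 against 21.5% unadjusted. For iPS in 2i against iPS, 0 were called (0% of all), with 11 of 131 against 9.18% unadjusted. The unadjusted counts of iPS against NPC and of iPS in 2i against iPS were thus near the background. The count of 0 for iPS against NPC and for iPS in 2i against iPS became 4 without iPS replicate 2, where 30 and 36 of all pairs of windows were called. For ES in 2i against ES it became 7 without NPC replicate 1 or 2 and 10 without iPS replicate 1 or 2, where 86 to 108 of all pairs of windows were called. These libraries enter this contrast through the shared estimate of the spread only.

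Fragment by fragment, most of both regions lay above 1 with capped counts. Of the 470 fragments, 468 had at least 100 expected counts over the 10 libraries. Their median capped ratio was 1.10, with 74.1% above 1, against 0.978 and 43.9% for 8785 sums of a fragment with a region on another chromosome. In every library, 117 (25.0%) lay above 1 and 20 (4.27%) below, against 10.2% and 12.8% for the latter. On the Sox2 side, 59 of 265 lay above 1 in every library, and on the Nestin side 58 of 203. As deposited, the median was 0.803 on the Sox2 side and 0.990 on the Nestin side. The 33 Sox2 fragments that took part in the 100 highest pairs on different chromosomes had a median of 0.411 as deposited and 1.03 with capped counts, and the 21 such Nestin fragments had 0.516 and 1.05.

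The fragments with the highest ratios as deposited had 27.7% to 90.4% of their counts from 1 partner. Sox2_REV_51 (chr3:34278152-34281516) had 19.5, with 90.4% of its counts from 1 pair, and a capped ratio of 2.47 (1.90 to 3.73 over the libraries). Sox2_REV_283 had 4.30 as deposited and 1.28 capped, Sox2_FOR_139 (chr3:34508836-34517938) had 2.84 and 1.92, and Sox2_REV_288 had 2.58 and 1.57. On the Nestin side, Nestin_FOR_161 (chr3:87878128-87878782, near Iqgap3) had 5.44 and 1.85, Nestin_REV_187 (chr3:88020972-88021261) had 4.22 and 1.92, Nestin_FOR_33 had 3.91 and 1.36, and Nestin_REV_98 (chr3:87634476-87635117) had 3.52 and 1.93. All 8 stayed above 1 in every library with capped counts. Nestin_REV_187, Nestin_REV_98 and Sox2_FOR_139 had their highest ratio with the other region of chromosome 3 in all 10 libraries. They were named for their high ratio with that region, so this is a description and not a test. Sox2_FOR_139 also lay above 1 in all 10 libraries with the Nanog region (1.38), and Nestin_REV_187 with the Oct4 region (1.24). Nestin_REV_98 did so with no region on another chromosome.

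The lowest fragments as deposited were partners in the highest pairs on different chromosomes. Nestin_REV_23 stood at 0.0285 and Nestin_REV_258 at 0.0739, and with capped counts at 0.913 and 0.767. Sox2_REV_40 moved from 0.0843 to 0.912 and Sox2_REV_306 from 0.123 to 1.25. With capped counts the lowest were Nestin_FOR_17 at 0.614 (0.471 to 0.859), which overlaps Etv3, a gene of an ETS family repressor, Nestin_FOR_117 at 0.667, Sox2_REV_333 at 0.706 and Sox2_FOR_126 at 0.744. These 4 were chosen after their values were seen.

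Between kinds of cells, edgeR's quasi-likelihood test called 0 of 468 fragments for any difference, where 0.0216% of 9241 sums of a fragment with a region were called, and 130 of the 468 had an unadjusted p under 0.05, against 13.3% of all. The count became 3 without iPS replicate 2, where 41 of all sums were called, and 2 without iPS in 2i replicate 1, where 7 were. With capped counts 1 fragment was called (0.0325% of all called), Nestin_FOR_26 (chr3:87365867-87376223, between Etv3 and Arhgef11, edgeR adjusted p = 0.00468). Its capped ratio with the Sox2 region was 2.43 and 2.36 in ES cells, 1.25 and 1.29 in ES in 2i, 1.23 and 1.75 in NPC, 1.87 and 1.74 in iPS cells, and 1.23 and 1.35 in iPS in 2i. ES cells were the highest, the 2i kinds lay in the range of the lower NPC library, and no kind fell to 1. ES in 2i stood below ES cells by a log2 fold change of -0.91 (SE 0.129, edgeR adjusted p = 0.00269, with 0.108% of all called). NPC stood below ES cells by -0.71 (SE 0.126, edgeR adjusted p = 0.0229, with 0.184% of all called). As deposited the same fragment gave -0.45 and -0.17 and was not called (edgeR adjusted p = 0.325 and 0.718).

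Contrasts of NPC with ES cells called 3 fragments as deposited (0.390% of all called) and 3 with capped counts, and none was shared. As deposited, Nestin_FOR_33 rose from 2.21 and 1.49 in ES cells to 7.18 and 7.30 in NPC (log2 fold change 1.97, edgeR adjusted p = 0.0426), Sox2_FOR_76 rose by 1.36 (edgeR adjusted p = 0.0426) and Nestin_REV_31 fell by 1.35 (edgeR adjusted p = 0.0381). With capped counts these 3 gave -0.17, 0.38 and -0.28 and were not called, so Nestin_FOR_33 changed sign. Capped, Sox2_REV_69 rose from 0.846 and 0.920 in ES cells to 1.32 and 1.62 in NPC (0.72, edgeR adjusted p = 0.0229) and Sox2_REV_327 rose by 0.61 (edgeR adjusted p = 0.0412), next to Nestin_FOR_26. For ES in 2i against ES, 1 fragment was called as deposited (0.141% of all called), Sox2_FOR_228, at 0.537 and 0.535 in ES cells and 1.05 and 0.934 in ES in 2i (0.88, edgeR adjusted p = 0.0478). For iPS against NPC, 3 were called with capped counts (0.0649% of all called) and none as deposited. These were Nestin_FOR_19, at 0.317 and 0.420 in NPC and 1.55 and 1.23 in iPS cells (1.90, edgeR adjusted p = 0.0250), Nestin_REV_14 (0.67, edgeR adjusted p = 0.0242) and Sox2_FOR_62 (-0.71, edgeR adjusted p = 0.0263). Nestin_FOR_19, Nestin_REV_14 and Nestin_FOR_26 lie beside Etv3, at 2.27, 17.7 and 21.8 kb from it.

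The primer pairs with the highest ratio of observed to expected counts as deposited, among those with a count in all 10 libraries, stood far above their neighbours. Sox2_REV_51 with Nestin_FOR_33 had 13147 counts where 5.72 were expected, with 1252 and 748 in ES cells, 742 and 2019 in ES in 2i, 2522 and 2278 in NPC, 608 and 1287 in iPS cells, and 1014 and 677 in iPS in 2i. The 15 pairs within 20 kb of it had at most 49 counts each and a capped ratio of 0.854. Sox2_REV_283 with Nestin_FOR_161 had 16924 counts (550 to 4382 in a library) where 39.5 were expected, and its 58 neighbouring pairs reached 509 counts and a capped ratio of 1.40. Sox2_FOR_16 with Nestin_REV_187 had 6968 counts (90 to 2044) where 15.4 were expected, Sox2_FOR_139 with Nestin_REV_195 had 4109 (56 to 761) where 15.7 were expected, and Sox2_FOR_314 with Nestin_REV_67 had 2989 (69 to 631) where 13.7 were expected. All 5 had a count in each library. Of the 100 Sox2 to Nestin pairs with the most counts, each with at least 604 counts, 95 had a count in every library. The 4499 pairs within 20 kb of them had a capped ratio of 1.10. For the 5 pairs with the highest ratio, the capped ratio of these neighbours ran from 0.742 to 1.43, and for the 5 with the most counts from 0.854 to 1.49. The latter include Sox2_FOR_62 with Nestin_REV_75 (9866 counts, 78 to 2550 a library) and Sox2_FOR_341 with Nestin_REV_224 (6280 counts, 39 to 2343).

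The capped ratio did not depend much on distance or on the kind of primer pair. In steps of 250 kb it was 1.07 at 52.25 to 52.5 Mb, 1.11 at 53 to 53.5 Mb and 1.04 at 54 to 54.25 Mb. The ratio as deposited varied more over these distances, from 0.319 at 54 to 54.25 Mb to 0.821 at 53 to 53.25 Mb. The 68 pairs closer than 52.25 Mb had 1.36 capped and 1.85 as deposited, and they all involve the 2 edges of the regions that face each other. Pairs of a Sox2 forward with a Nestin reverse primer had a capped ratio of 1.09 and the opposite orientation 1.12. Where both fragments were longer than the median of 2456 bp the ratio was 1.14 (1.08 to 1.37 over the libraries), and where both were shorter 1.09 (1.05 to 1.14). Each of these classes of orientation and length lay above 1 in all 10 libraries. Libraries resembled each other in which pairs of windows were high. Over the 110 pairs of windows, Pearson's r of the capped ratio was 0.489 to 0.802 for the 5 pairs of libraries of 1 kind and 0.293 to 0.706 for the 40 pairs of different kinds. These correlations are a description, since libraries share fragments and primers.

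The RNA of both genes and of their neighbours is given as CPM, with no test. Sox2 stood at 491 and 587 CPM in ES cells, 640 and 506 in ES in 2i, 261 and 234 in NPC, 98.6 and 111 in iPS cells, and 327 and 335 in iPS in 2i. The iPS cells in medium with LIF were the lowest and did not overlap any other kind. Nes had 3.48 and 3.84 CPM in NPC, from 4 and 14 reads, and 0 to 0.551 CPM in every other library. The Nes level is that of the transcript model with the most counts, and reads that overlap several models of a gene may be missing from it. Bcan, the neighbour of Nes that encodes the matrix protein brevican, had 206 and 269 CPM in NPC and at most 0.804 elsewhere. Crabp2, which encodes a retinoic acid binding protein in the same window, had 300 and 370 CPM in iPS cells and 126 and 142 in iPS in 2i, with 18.3 and 16.6 in ES cells, 6.91 and 7.11 in ES in 2i, and 0.869 and 0 in NPC. Hdgf, a growth factor gene in that window, was at 1503 to 1887 CPM outside NPC and at 781 and 783 CPM in NPC. Rhbg, in the window with the highest ratio, had 0 CPM in both NPC libraries and 0.367 to 4.07 CPM elsewhere. In capped ratios of the Sox2 window with the Nes window, by contrast, NPC at 1.12 and 1.27 stood between the other kinds.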

How the data were processed

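The authors deposited whole-number 5C counts per pair of primers for 10 libraries and RNA counts per transcript model for 10 libraries. Bowtie and mm9 for 5C, and TopHat, TopHat2 2.1.0 and HTSeq for RNA, are named per the submitters' processing notes; other steps are not stated there. Gene names and positions came from a deposited expression table. The members and lists were chosen with earlier results of these data known. Expected counts were set per library so that observed and expected totals over pairs on different chromosomes were equal. Counts summed per pair of regions, pair of 100 kb windows, and fragment with a region were fitted across all such sums with edgeR 4.0.16 (quasi-likelihood F test, kind as the only term, log expected count as offset, mean of at least 10 counts, Benjamini-Hochberg adjusted p under 0.05) in R 4.3.3, and tested on simulated data. DESeq2 1.42.0, other scalings, windows of 50 and 200 kb, expectations, capping and libraries left out were alternatives. Single ratios were tested by exact permutation in Python 3.11.15 with scipy 1.17.1. RNA levels are CPM of assigned reads, computed here, with no test. Fragments named were those at the gene starts, the 4 highest and 2 lowest of each region as deposited with an expected total of at least 100, and those called; windows and primer pairs (5 highest with a count in all 10 libraries) followed a like rule.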

Additional observations from a re-analysis of the deposited data

How the results depend on the processing

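The mean log2 ratio of Sox2 with Nestin was -0.49 as deposited and changed sign with every treatment of high counts that was run. It was 0.14 with counts capped at the 99th percentile, 0.17 at the 90th percentile, 0.10 with the highest 1 in 1000 counts capped, 0.16 with capped counts and balanced factors, 0.18 with capped counts and a flat expectation, 0.075 with presence only and 0.078 with presence and balanced factors. With a flat expectation on counts as deposited it was -0.10 (p = 0.0762, exact permutation test). Balanced factors on counts as deposited gave -0.66, so the sign turned with capping or presence only and not with balancing. Capped counts or TMM scaling ended the call of ES in 2i against ES (0.10 and 0.20), and capped counts that of NPC against ES (0.11). Counts of calls are given beside the calls over all sums fitted, which rose with them. Called pairs of windows for any difference were 17 (of 227 in all) by DESeq2 and 2 (of 23) in 50 kb windows. For NPC against ES they were 13 (of 179) with the library total as offset, 5 (of 113) with TMM scaling, 5 (of 112) with DESeq2 size factors, 16 (of 206) by DESeq2, 4 (of 80) in 50 kb windows, 4 (of 34) in 200 kb windows and 3 (of 17) with capped counts. For ES in 2i against ES they were 11 (of 227) with the library total as offset, 1 (of 16) with TMM scaling, 1 (of 15) with DESeq2 size factors, 19 (of 223) by DESeq2 and 4 (of 19) in 50 kb windows. Called fragments were 101 (of 1299) with the library total as offset and 1 (of 3) with capped counts. Leaving out each library in turn, the mean log2 ratio ran from -0.52 to -0.46 and the variance between kinds from 71.3% to 85.4%. The log2 fold change of the regions ran from 0.23 to 0.48 for NPC against ES, from 0.29 to 0.49 for ES in 2i against ES, from -0.05 to 0.15 for iPS against ES, from -0.43 to -0.18 for iPS against NPC and from 0.16 to 0.36 for iPS in 2i against iPS. Called pairs of windows ran from 0 to 5 for any difference, 0 to 13 for NPC against ES, 0 to 10 for ES in 2i against ES, 0 to 4 for iPS against NPC, 0 to 4 for iPS in 2i against iPS and 0 to 0 for iPS against ES, and called fragments from 0 to 3. For any difference, the calls over all sums ran up to 62 pairs of windows and 41 fragment sums. The cause of these shifts was not tested. Over all 2865 fitted pairs of windows, same-numbered deviations from the mean of a kind correlated at -0.115 to 0.0671 between kinds, with capped counts. Only 131 of these pairs join Sox2 with Nestin, so the correlation cannot exclude a pairing by replicate number there. A replicate block left NPC against ES at 0.36 (edgeR adjusted p = 0.0401) and ES in 2i against ES at 0.39 (edgeR adjusted p = 0.0337), with no call changed. With medians of 0 to 2 counts per primer pair and library, single pairs do not allow comparisons between kinds.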
